A study of Mus musculus with 4 samples.

Results

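Purine and pyrimidine rings are built de novo by short enzyme pathways, and the transcripts of 10 of these enzymes were followed here in restimulated mouse T helper 2 (Th2) cells. The genes were taken by name from the 54532 genes of the count table. Of the 10, 7 encode purine enzymes (Ppat, Gart, Pfas, Paics, Adsl, Atic and Impdh2) and 3 encode pyrimidine enzymes (Cad, Umps and Ctps). All 10 were found, and all 10 were among the 14316 genes with enough reads to be tested. RNA was sequenced in 4 libraries, 2 from cells cultured with DMSO, the solvent control, and 2 from cells cultured with HU-308, a synthetic agonist selective for cannabinoid receptor 2. Both groups were wild type, carry the label of the bleomycin-induced model of systemic sclerosis (BLM-SSc), and started as naive CD4+ T cells in Th2-polarising culture. Both were restimulated on day 4 with beads against CD3 and CD28 and collected after 12 h. The dose of HU-308 and the age and number of mice are not given in the sources used here. No group lacked the receptor or had it blocked. Nothing ties the replicates to separate mice or cultures, so p-values reflect the spread among the sequenced libraries, which may be technical.

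In the purine pathway a ring is assembled on an activated ribose, phosphoribosyl pyrophosphate (PRPP), and ends in inosine monophosphate (IMP), from which the adenine and guanine nucleotides branch. In the pyrimidine pathway the ring is made before the ribose is attached, giving uridine monophosphate and then the cytidine nucleotides. Activated T cells switch these pathways on before they divide, with the transcription factor MYC among the known activators of the genes, and inhibitors of IMP dehydrogenase and of dihydroorotate dehydrogenase are used to restrain lymphocytes in patients.

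The libraries held 18041457 and 20479254 counts with DMSO and 16145298 and 16263077 with HU-308, so each member rests on 375 to 5598 reads per library. Over all tested genes edgeR's quasi-likelihood test called 12 higher and 33 lower with HU-308 (Benjamini-Hochberg threshold 0.05), which puts 73.3% of calls on the lower side, or 60.0% when scaled by library size only. T cell markers were abundant, with 6 genes summing to 1446 and 1934 CPM (counts scaled to library size with edgeR's TMM factors) with DMSO and 1700 and 2182 with HU-308. Of 5 Th2 markers, the cytokine genes Il13 and Il5 fell with HU-308, with log2 fold changes of −3.69 ± 0.35 and −3.53 ± 0.29 (edgeR adjusted p = 0.0389 for each), and the list's median was −1.40. Il5 stood at 10.9 and 13.2 CPM with DMSO and 1.1 and 0.95 with HU-308, and Il13 at 20.5 and 30.1 against 2.44 and 1.48. Il4 stood at 26.4 and 27.8 CPM against 10.9 and 9.71 (−1.40 ± 0.18; edgeR adjusted p = 0.0594), and the factor Gata3 at 492.6 and 486.3 against 384.6 and 302.4 (−0.51 ± 0.16; edgeR adjusted p = 0.192). Il1rl1 had a log2 fold change of 0.10 ± 0.39. The part of these Th2 differences in the members' values was not tested. Sums over 4 B cell markers were 3.29 to 7.11 CPM, over 3 natural killer cell markers 0 to 0.118 CPM and over 3 fibroblast markers 3.06 to 3.68 CPM. They were 12.1 to 13.8 CPM over 2 markers of CD8 T cells and 0.692 to 1.78 CPM over 2 red cell markers. The myeloid marker Lyz2 had no read in any library, while Adgre1 carried nearly all of a 5-gene myeloid sum of 27.7 to 75.4 CPM.

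Stretches of promoter sequence are shown first, because MYC is known to bind the E-box, CACGTG, a palindrome that reads alike on both strands. RefSeq sequence (GRCm38.p6) of the 250 bases before the annotated start was matched for 9 of the 10 members, with Pfas the exception. The E-box occurred in the windows of Atic, Impdh2 and Paics, at 7, 110 and 203 bases before the start, and in 6.02% of 32851 such windows over all genes. The 30-base stretches around it follow with the E-box in capitals, for Atic at chr1:71557126-71557155, Impdh2 at chr9:108560314-108560343 and Paics at chr5:76951087-76951116, all on the plus strand. The Paics window lies wholly within an exon of the divergent gene Ppat, and 150 bases of the Impdh2 window lie within an exon that GENCODE, with an earlier start, assigns to Impdh2 itself.
Atic: gaggaggggcgggacctcggggtCACGTGg
Impdh2: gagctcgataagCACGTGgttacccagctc
Paics: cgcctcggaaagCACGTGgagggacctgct
The letters CACGTG do not occur in the windows of Ppat, Gart, Adsl, Cad, Umps or Ctps. Sequence after the start, or farther before it, was not searched.

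The whole 250-base windows are given for Ctps and Atic, the members with the smallest p. Capitals mark every match, on either strand, to the E-box, to the CCAAT box (CCAAT, in 33.8% of all windows), to the GC box (GGGCGG, in 32.7%) and to the TATA box (TATAAA, in 12.4%). The Atic window (chr1:71556906-71557155, plus strand) held 1 E-box, 1 CCAAT box and 3 GC boxes. The Ctps window (chr4:120570277-120570526, minus strand) held 1 GC box. RefSeq gives Ctps another start, whose window (chr4:120569460-120569709) held none of the 4 motifs, and the one shown ends at the gene's annotated 5′ end.
Atic: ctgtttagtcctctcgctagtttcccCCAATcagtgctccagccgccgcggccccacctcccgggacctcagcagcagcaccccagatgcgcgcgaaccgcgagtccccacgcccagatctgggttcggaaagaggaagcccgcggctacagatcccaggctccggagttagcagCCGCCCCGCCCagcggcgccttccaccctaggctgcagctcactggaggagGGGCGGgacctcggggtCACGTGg
Ctps: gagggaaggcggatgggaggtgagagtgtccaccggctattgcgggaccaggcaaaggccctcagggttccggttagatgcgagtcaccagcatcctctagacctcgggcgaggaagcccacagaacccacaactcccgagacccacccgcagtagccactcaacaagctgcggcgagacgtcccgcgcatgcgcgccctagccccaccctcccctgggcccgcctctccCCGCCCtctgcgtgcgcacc
The E-box of Atic ends next to the RefSeq start, and by GENCODE, which starts Atic earlier, the last 6 bases of the window lie in its exon. A match shows only that the letters are present.

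Expression of the 10 enzymes was high in every library. On the length-corrected scale of the deposited FPKM values, their mean over the 4 libraries lay at percentile 70.7 (Pfas) to 92.9 (Paics) of the tested genes. With DMSO, Paics had the highest level (45.2 ± 11.4 FPKM, mean ± SD, n = 2), followed by Impdh2 (41.8 ± 15.6), Cad (30 ± 13.1) and Atic (27.4 ± 7.94). Ppat, Umps and Gart lay between 19.6 and 21.6 FPKM, and Ctps, Adsl and Pfas between 15 and 16.3. The ranges of the 2 DMSO libraries overlapped for every neighbouring pair in this order, although Paics exceeded Impdh2, and Impdh2 exceeded Cad, within each of the 4 libraries. The order of Paics and Impdh2 is uncertain, since the values of Impdh2 leave out reads given to its near-identical pseudogene Impdh2-ps. That pseudogene was given 1074 and 723 reads with DMSO and 741 and 558 with HU-308. With HU-308, Paics (47.6 ± 11 FPKM) and Impdh2 (35.2 ± 10.4) stayed at the top, and the next gene, Cad, was at 17.9 ± 8.01, below both Impdh2 libraries. Ctps had the lowest mean (8.51 ± 2.71), though its range overlapped that of its neighbour Pfas (9.57 ± 2.32).

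Between the groups, 9 of the 10 members had less transcript with HU-308, and none passed the threshold across all genes. The median log2 fold change of the members was −0.75, against 0.02 over all tested genes, and the single positive value was that of Paics. Both HU-308 libraries lay below both DMSO libraries for 7 members, an arrangement found in 25.4% of all tested genes. At an adjusted p under 0.05 edgeR called 0 members, where 0.231% of tested genes were called lower. At an unadjusted p under 0.05, 6 members were lower, where the share of all tested genes was 9.97%. DESeq2 called 1 member, Ctps (adjusted p = 0.042), with 4.56% of genes called lower. Over all genes it called 526 lower and 287 higher. The authors' deposited table gave an adjusted p under 0.05 to 2 members, Ctps (0.0339) and Atic (0.0395), with 2.07% of genes called lower. Since the members were chosen with earlier results of these data known, their counts beside these shares are a description with no test. The members' median depended on single libraries, at −0.35 when DMSO replicate 1 was left out, −0.47 when HU-308 replicate 2 was, −1.07 for DMSO replicate 2 and −1.08 for HU-308 replicate 1. In bulk RNA, fewer cells of a state and less RNA per cell cannot be told apart.

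**Figure D1:**
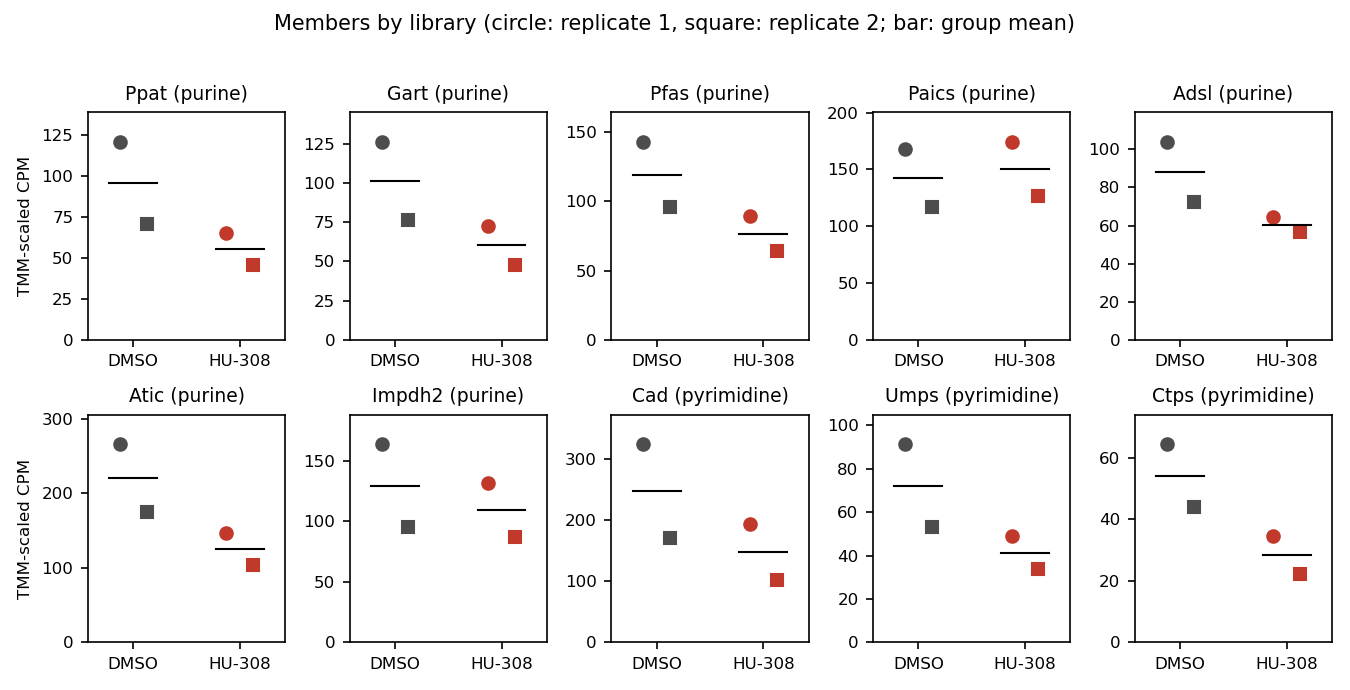
TMM-scaled CPM (vertical axes, from 0) of the 10 members in each library, DMSO in grey and HU-308 in red, with circles for replicate 1, squares for replicate 2 and bars for group means of 2 libraries. Replicate 1 stands above replicate 2 in both groups for every member, and Paics is the member whose group means lie closest together.

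The 2 libraries of a group differed nearly as much as the groups did. In each group replicate 1 held more transcript than replicate 2 for all 10 members, an arrangement found in 35% of tested genes. Replicate 1 exceeded replicate 2 by 1.43-fold to 1.89-fold with DMSO (median 1.58) and by 1.14-fold to 1.90-fold with HU-308 (median 1.43), while the median over tested genes with a read in each library was 1 with DMSO and 0.99 with HU-308. The group means of the members differed by 0.95-fold to 1.90-fold (median 1.68, DMSO over HU-308). DMSO replicate 2 and HU-308 replicate 1 were nearest to each other, at a median of 1.08-fold. Summed over 15 markers of DNA replication and mitosis, levels were likewise higher in replicate 1 of both groups, at 8336 and 6028 CPM with DMSO and 8238 and 6495 with HU-308. T cell markers stood the other way, higher in replicate 2 of both groups, at the sums given above. The part of these differences in the members' values was not tested.

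The purine pathway opens with Ppat, the amidotransferase that commits PRPP to purine synthesis (ENSMUSG00000029246, chr5:76913249-76951578, minus strand, GRCm38). It stood at 120.8 and 70.9 CPM with DMSO and 65.1 and 45.7 with HU-308. The HU-308 libraries were the 2 lowest, but HU-308 replicate 1 came close to DMSO replicate 2. The log2 fold change was −0.79 ± 0.30 (SE; 95% interval −1.53 to −0.05; edgeR adjusted p = 0.246), a 1.73-fold lower level.

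Gart encodes a trifunctional enzyme that carries out 3 early steps, including a transfer of a formyl group from folate (ENSMUSG00000022962, chr16:91621186-91646952, minus strand). It stood at 126.2 and 76.6 CPM with DMSO and 72.8 and 47.6 with HU-308. The groups were again separated by a narrow gap, with a log2 fold change of −0.75 ± 0.31 (edgeR adjusted p = 0.268). Gart shares 19.7% of its exon bases with the antisense gene Gm15964, which was given 76 reads over the 4 libraries, and whether counting used strand is not stated.

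Pfas, a glutamine-using synthase that acts between steps of Gart (ENSMUSG00000020899, chr11:68985697-69008460, minus strand), stood at 143.2 and 95.7 CPM with DMSO and 89.2 and 63.9 with HU-308. Adsl, the lyase that removes fumarate both on the way to IMP and on the way to AMP (ENSMUSG00000022407, chr15:80948490-80970946, plus strand), stood at 104.0 and 72.2 CPM against 64.3 and 56.5. For both genes the HU-308 libraries lay below the DMSO libraries. Their log2 fold changes were −0.64 ± 0.26 for Pfas and −0.54 ± 0.21 for Adsl (edgeR adjusted p = 0.261 and 0.247), with Adsl showing the smallest difference among the 7 members whose groups did not overlap.

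Atic, the bifunctional enzyme that adds the last formyl group and closes the ring to IMP (ENSMUSG00000026192, chr1:71557150-71579631, plus strand), stood at 265.3 and 175.1 CPM with DMSO and 146.4 and 103.6 with HU-308. It had the widest separation of the purine members, with a log2 fold change of −0.82 ± 0.26 (95% interval −1.46 to −0.17; edgeR adjusted p = 0.194), a 1.76-fold lower level.

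Paics and Impdh2 stood apart from the other purine members in having overlapping groups. Paics, which fuses the carboxylase and synthetase of the middle of the pathway (ENSMUSG00000029247, chr5:76951307-76967509, plus strand), stood at 168.1 and 117.3 CPM with DMSO and 174.3 and 126.9 with HU-308. Each HU-308 library was slightly above the DMSO library of the same number, and the log2 fold change was 0.08 ± 0.24, with a 95% interval from −0.51 to 0.67 (edgeR adjusted p = 0.89).

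Impdh2, the IMP dehydrogenase that opens the branch to guanine nucleotides and is induced in proliferating lymphocytes (ENSMUSG00000062867, chr9:108560286-108565584, plus strand), stood at 163.3 and 94.9 CPM with DMSO and 131.5 and 87.3 with HU-308. HU-308 replicate 1 lay between the DMSO libraries. The log2 fold change was −0.24 ± 0.31 (95% interval −1.01 to 0.54; edgeR adjusted p = 0.715). The counts of Impdh2 are uncertain, since the processed pseudogene Impdh2-ps matches 1545 bases of its transcript at 99.7% identity and was itself given 3096 reads. Summed with the pseudogene, Impdh2 came to 225.3 and 131.8 CPM with DMSO and 175.5 and 120.4 with HU-308, still overlapping.

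Of the pyrimidine members, Cad encodes the fused enzyme of the first 3 steps, whose carbamoyl phosphate synthetase is the control point of the pathway (ENSMUSG00000013629, chr5:31054780-31078479, plus strand). It was the member with most reads and stood at 323.0 and 171.1 CPM with DMSO and 193.4 and 101.6 with HU-308. HU-308 replicate 1 exceeded DMSO replicate 2, so the groups overlapped. The log2 fold change of −0.74 ± 0.40 had a 95% interval from −1.74 to 0.25 (edgeR adjusted p = 0.376).

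Umps, the bifunctional enzyme that makes uridine monophosphate from orotate (ENSMUSG00000022814, chr16:33954782-33967038, minus strand), stood at 91.1 and 53.2 CPM with DMSO and 48.8 and 33.9 with HU-308. The groups were separated, with a log2 fold change of −0.80 ± 0.31 (edgeR adjusted p = 0.246). Umps shares 6.11% of its exon bases with the antisense gene Gm15829, which was given 17 reads.

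Ctps, the cytidine triphosphate synthase whose human counterpart CTPS1 is needed for the expansion of activated lymphocytes (ENSMUSG00000028633, chr4:120539868-120570276, minus strand), stood at 64.4 and 43.9 CPM with DMSO and 34.7 and 22.2 with HU-308. This was the largest difference among the members, with a log2 fold change of −0.93 ± 0.29 (95% interval −1.63 to −0.22; edgeR adjusted p = 0.182), a 1.90-fold lower level. Over the fits that leave out a single library it ranged from −0.64 (DMSO replicate 1 or HU-308 replicate 2 absent) to −1.28 (HU-308 replicate 1 absent).

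**Figure D2:**
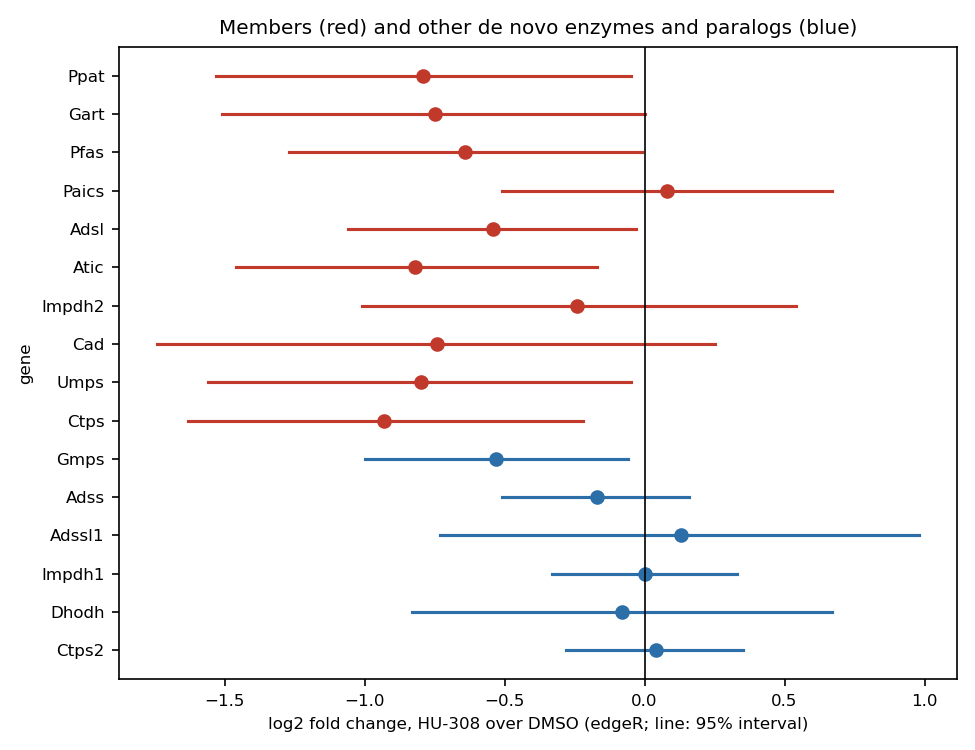
Log2 fold change of HU-308 over DMSO (horizontal axis, edgeR) with 95% intervals for the 10 members in red and for 6 other de novo enzymes and paralogs in blue. Of the members, Paics lies nearest to 0 at 0.08 and Ctps farthest at −0.93.

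The neighbours Ppat and Paics had unlike differences between the groups. The genes are arranged head to head on chromosome 5 and overlap by 272 bases at their 5′ ends, which is 6.15% of the exon bases of Ppat and 8.67% of those of Paics. The ratio of Ppat to Paics, computed from FPKM within each library, was 0.51 and 0.429 with DMSO and 0.265 and 0.255 with HU-308. A ratio within a library does not depend on how libraries are scaled, and here the 2 replicates of a group lay close together while the groups were separated, with a 1.80-fold lower ratio with HU-308. The groups were also separated for the ratio of Atic to Paics, at 0.621 and 0.587 with DMSO and 0.33 and 0.321 with HU-308, as did that of Gart to Paics, at 0.458 and 0.399 against 0.255 and 0.229. These and the following ratios were chosen after the values were seen and are a description with no test, since an exact permutation test of 2 libraries against 2 cannot give a p below 0.333. The 95% intervals of Ppat and Paics overlapped.

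Paralogs of the members were compared in the same way. Ctps2, the second cytidine triphosphate synthase gene, stood at 93.1 and 92.2 CPM with DMSO and 97.0 and 93.1 with HU-308 (log2 fold change 0.04 ± 0.13; edgeR adjusted p = 0.904), so its 4 libraries were nearly level. The FPKM ratio of Ctps to Ctps2 was 0.985 and 0.678 with DMSO and 0.509 and 0.34 with HU-308, with no overlap. Impdh1, the constitutive IMP dehydrogenase gene, was likewise level, at 104.8 and 117.5 CPM with DMSO and 110.2 and 111.6 with HU-308. The ratio of Impdh2 to Impdh1 was 1.67 and 0.864 with DMSO and 1.28 and 0.838 with HU-308, and the groups overlapped.

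**Figure D3:**
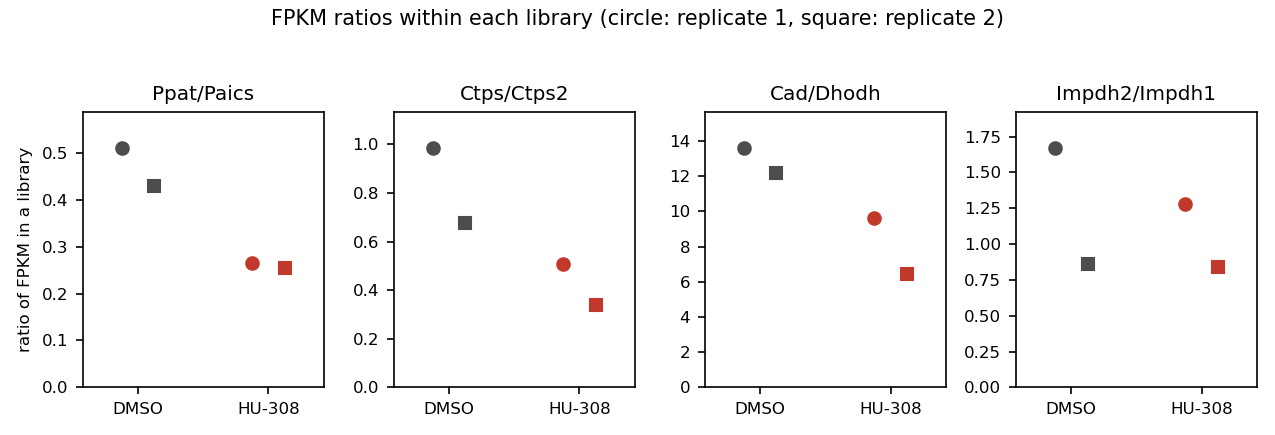
Ratio of FPKM values within each library (vertical axes, from 0) for 4 gene pairs, with circles for replicate 1 and squares for replicate 2. The groups are separated for Ppat/Paics, Ctps/Ctps2 and Cad/Dhodh and overlap for Impdh2/Impdh1.

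Of the remaining enzymes of the 2 pathways, Gmps, which turns xanthosine monophosphate into GMP, stood at 152.3 and 112.8 CPM with DMSO and 99.3 and 84.3 with HU-308, with separate groups (log2 fold change −0.53 ± 0.19; edgeR adjusted p = 0.23). Adss, the adenylosuccinate synthetase of the AMP branch, was also lower in both HU-308 libraries, by a small amount (−0.17 ± 0.14; edgeR adjusted p = 0.53). Its muscle paralog Adssl1 was at 2.71 to 4.39 CPM with overlapping groups. Dhodh, the mitochondrial dihydroorotate dehydrogenase between Cad and Umps, stood at 18.4 and 10.9 CPM with DMSO and 15.5 and 12.2 with HU-308, also overlapping (−0.08 ± 0.30; edgeR adjusted p = 0.916). The DESeq2 adjusted p was 0.191 for Gmps, 0.713 for Adss and 0.941 for Dhodh. The FPKM ratio of Cad to Dhodh was 13.6 and 12.2 with DMSO and 9.64 and 6.44 with HU-308, and that of Umps to Dhodh 8.99 and 8.88 against 5.72 and 5.05. Over these 6 genes and paralogs none passed the threshold, and the median log2 fold change was −0.04, which turned to 0.08 with library size scaling only and to 0.03 when HU-308 replicate 2 was left out, and was −0.11 when any of the other 3 libraries was.

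Enzymes that feed the pathways were read from lists of genes with known roles. PRPP itself is made by Prps1 and Prps2, which had log2 fold changes of −0.31 ± 0.24 and −0.25 ± 0.29 with overlapping groups (edgeR adjusted p = 0.515 and 0.676). The 4 tested PRPP genes had a median of −0.19 and no call, and the median turned to 0.06 when DMSO replicate 1 was left out. It was −0.36 when DMSO replicate 2 was left out, −0.12 for HU-308 replicate 2 and −0.07 with library size scaling only. Their regulatory partners Prpsap1 and Prpsap2 had log2 fold changes of 0.00 ± 0.19 and −0.14 ± 0.20. Among 9 tested folate enzymes, which supply the formyl groups used by Gart and Atic, no gene was called and the median was −0.20, or −0.08 when HU-308 replicate 1 was left out or library size alone was used, and −0.13 when DMSO replicate 1 was left out. Its lowest values were those of 2 cytosolic enzymes. Shmt1, a serine hydroxymethyltransferase, stood at 59.0 and 34.2 CPM with DMSO and 23.7 and 12.2 with HU-308 (−1.38 ± 0.40; edgeR adjusted p = 0.166; DESeq2 adjusted p = 0.00733). Mthfd1, the trifunctional cytosolic folate enzyme, stood at 96.6 and 53.4 CPM against 51.7 and 34.4 (−0.80 ± 0.33; edgeR adjusted p = 0.275). The mitochondrial enzymes Shmt2 and Mthfd2 had log2 fold changes of −0.34 ± 0.20 and −0.18 ± 0.14. The DESeq2 adjusted p was 0.609 for Prps1, 0.734 for Prps2, 0.135 for Mthfd1, 0.489 for Shmt2 and 0.702 for Mthfd2. Shmt1 shares 4.74% of its exon bases with the oppositely oriented Smcr8, which was given 7079 reads over the 4 libraries.

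Salvage enzymes recycle bases and nucleosides instead of building them. The list of purine salvage and breakdown and that of pyrimidine salvage had positive medians over the tested genes, with no gene called by edgeR. Summed levels overlapped between the groups. They were 572.7 and 433.7 CPM with DMSO and 665.3 and 517.2 with HU-308 for the purine list. The pyrimidine list summed to 339.0 and 294.0 CPM against 321.7 and 294.0. The 13 tested genes of purine salvage and breakdown had a median log2 fold change of 0.16, with 5 higher in both HU-308 libraries, an arrangement found in 25.9% of all tested genes, and 1, Hprt, lower in both. The median was 0.03 when HU-308 replicate 1 was left out, 0.26 for DMSO replicate 1 and 0.27 for HU-308 replicate 2. Pnp, the purine nucleoside phosphorylase, stood at 14.1 and 13.6 CPM with DMSO and 19.9 and 17.8 with HU-308 (0.44 ± 0.18; edgeR adjusted p = 0.267). Xdh, the oxidase that forms urate in purine breakdown, stood at 10.4 and 19.2 CPM with DMSO and 24.4 and 51.3 with HU-308 (1.35 ± 0.44; edgeR adjusted p = 0.20; DESeq2 adjusted p = 0.0188). Dck, the deoxycytidine kinase, which also accepts purine deoxynucleosides, stood at 105.2 and 53.6 CPM against 179.6 and 113.4 (0.88 ± 0.37; edgeR adjusted p = 0.276). Hprt, which returns hypoxanthine and guanine to nucleotides, stood at 147.6 and 118.6 CPM against 115.0 and 94 (−0.35 ± 0.18; edgeR adjusted p = 0.35). The DESeq2 adjusted p was 0.399 for Pnp, 0.11 for Dck and 0.445 for Hprt.

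The 7 tested pyrimidine salvage genes had a median of 0.40, which turned to −0.08 with no low-count filter, and was 0.17 when DMSO replicate 1 was left out and 0.21 when HU-308 replicate 2 was. The uridine-cytidine kinase genes Uck1 and Uck2 differed in sign. Uck2 stood at 184.9 and 147.7 CPM with DMSO and 107.8 and 83.8 with HU-308 (−0.80 ± 0.19; edgeR adjusted p = 0.13; DESeq2 adjusted p = 0.0185). Uck1 stood at 28.1 and 33.2 CPM against 42.8 and 44.8 (0.51 ± 0.16; edgeR adjusted p = 0.182), and both genes had separate groups. Tk1, the thymidine kinase of dividing cells, was higher in both HU-308 libraries (0.66 ± 0.26; edgeR adjusted p = 0.256), as was the kinase-like Uckl1 (0.40 ± 0.20; edgeR adjusted p = 0.333). The DESeq2 adjusted p was 0.202 for Uck1, 0.174 for Tk1 and 0.45 for Uckl1.

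The list of deoxynucleotide synthesis, which also holds genes that break deoxynucleotides down, gave mostly positive values. The 9 tested genes of this list had a median log2 fold change of 0.27, with 7 above 0 and no call. The median turned to −0.03 when HU-308 replicate 1 was left out and was 0.09 when DMSO replicate 2 was. The ribonucleotide reductase genes, which turn ribonucleotides into deoxynucleotides, were near level or lower, with overlapping groups. Rrm1, Rrm2 and Rrm2b had log2 fold changes of 0.02 ± 0.28, 0.06 ± 0.26 and −0.22 ± 0.27. Dctd, the deoxycytidylate deaminase, had the lowest value of the list, at 14.4 and 7.71 CPM with DMSO and 5.88 and 3.73 with HU-308 (−1.20 ± 0.40; edgeR adjusted p = 0.206). Tyms, the thymidylate synthase, had a log2 fold change of 0.36 ± 0.23, and Samhd1, which breaks deoxynucleotides down, of 0.41 ± 0.16 (edgeR adjusted p = 0.45 and 0.251). Dctpp1, a deoxycytidine triphosphate pyrophosphatase, had one of 0.27 ± 0.17 (edgeR adjusted p = 0.433). The DESeq2 adjusted p was 0.066 for Dctd, 0.533 for Tyms, 0.291 for Samhd1 and 0.643 for Dctpp1. The 15 replication and mitosis markers had a median of 0.17, a range from −0.15 to 0.47 and no call. Their median turned to −0.12 when DMSO replicate 2 was left out and to −0.06 for HU-308 replicate 1, and was 0.49 for DMSO replicate 1 and 0.36 for HU-308 replicate 2. None of these differences between lists was tested.

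Myc stood at 97.4 and 52.9 CPM with DMSO and 34.7 and 16.3 with HU-308, with separate groups and a log2 fold change of −1.56 ± 0.43 (edgeR adjusted p = 0.159; DESeq2 adjusted p = 0.00246). In both groups its replicate 1 stood above its replicate 2, as with the members and with 35% of all tested genes. The part of Myc in the members' values was not tested.

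**Figure D4:**
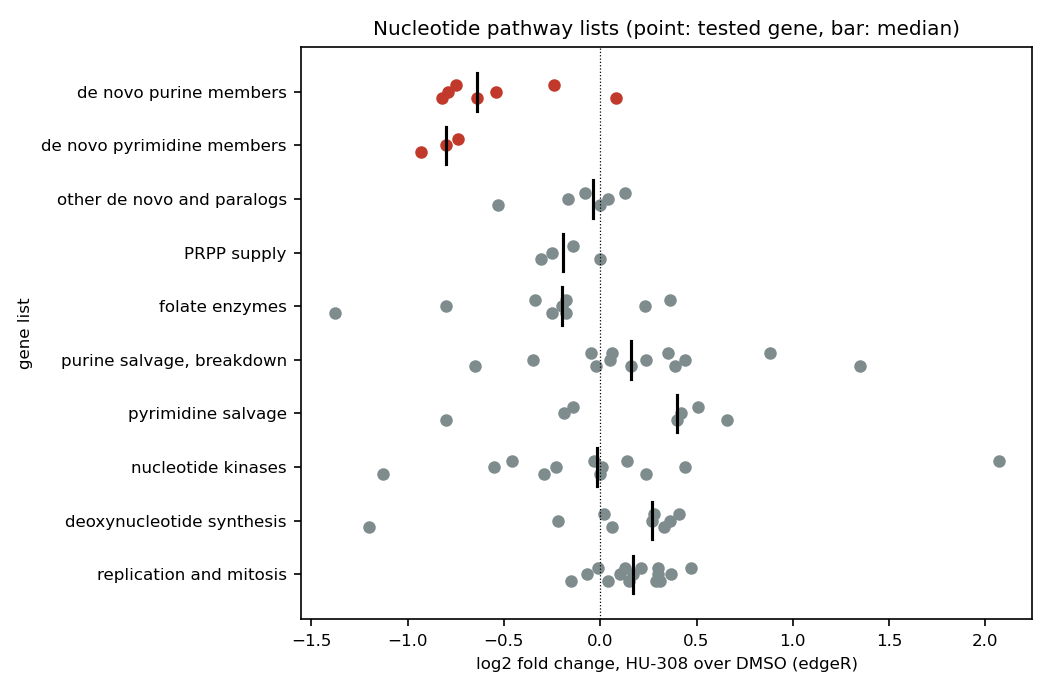
Log2 fold change of HU-308 over DMSO (horizontal axis, edgeR) for every tested gene of 10 lists, with a vertical bar at each list's median and the members in red. The purine and pyrimidine members have medians of −0.64 and −0.80, and deoxynucleotide synthesis and replication lists of 0.27 and 0.17, whose sign turns when HU-308 replicate 1 is left out.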

How the data were processed

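Bulk RNA-seq of 4 libraries was analysed from the table the authors deposited. Per the submitters' processing notes, RSEM 1.3.1, Bowtie2 2.3.4.3 and DESeq2 1.4.5 were used with GRCm38 (mm10); the role of each, the annotation release and the strand setting are not given in the sources used here. Per the file headers, the deposited counts are unscaled whole numbers per gene and library, and the deposited FPKM values are scaled by gene length and depth by the authors. The authors also deposited the signal of each group (mean scaled counts, used here only to check the sign of the comparison), a log2 fold change and p-values.

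The test ran in edgeR 4.0.16 under R 4.3.3: filterByExpr (minimum count 10, minimum total 15), TMM scaling, and the quasi-likelihood F test of HU-308 against DMSO on all 14316 genes kept, unpaired, with Benjamini-Hochberg adjustment at 0.05. Each SE was taken as the absolute log2 fold change divided by the square root of F, and intervals are 95%. Steps were tested on simulated data. Replicates were distinct libraries: a chi-square test of their counts gave 42.6 (DMSO) and 28.6 (HU-308) relative to its degrees of freedom. Alternatives used RLE or library size scaling, other filters, protein-coding genes only, DESeq2 1.42.0 on the same genes, limma 3.58.1 (voom, and log2 of FPKM with pseudocounts of 1 and 0.1), a replicate block and each library left out. Exon overlaps came from GENCODE M21, and similar transcripts from BLAST 2.17.0 (at least 90% identity over 200 bases). Figures were drawn with matplotlib 3.10.9.

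Members and lists were chosen with earlier results of these data known. All members are named, and of the other pathway lists at most 4 genes with the smallest p (replication markers by their median and range only), besides the remaining de novo enzymes, paralogs and Myc. Il1rl1, the marker genes Lyz2 and Adgre1, and the reductase genes Rrm1, Rrm2 and Rrm2b were named after their values were seen.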

Additional observations from a re-analysis of the deposited data

How the results depend on the processing

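The members' median log2 fold change of −0.75 stayed between −0.63 and −0.75 under every other scaling, filter and test, and ran from −1.08 to −0.35 with a single library left out. Library size scaling alone shifted the all-gene median by 0.118, and the members' median minus the all-gene median was −0.77 with TMM, RLE and library size scaling. The count of members called was 0 with edgeR, 1 with DESeq2, and 0 to 2 with a library left out (Ppat and Umps without DMSO replicate 2, both at an adjusted p of 0.046; the lone remaining sample is then assumed to vary like the other group). The count over all genes, 45 with edgeR, was 28 with at least 1 CPM in 2 libraries, 20 with library size only, 561 with no low-count filter, 813 with DESeq2, 0 with limma on log2 FPKM at either pseudocount (2625 and 2629 genes at an unadjusted p under 0.05, 2 members in each) and 37 to 337 with a library left out. With the replicate number as a block, 4839 of 14316 genes were called, 2445 lower and 2394 higher. That fit called 8 members, all but Paics and Impdh2, and all 8 were lower. Same-numbered libraries deviated from their group means together (correlation 0.465), but nothing in the labels pairs them and 2 pairs cannot show it, so the unpaired fit was kept. The sign of Impdh2 (−0.24) turned without DMSO replicate 1 (0.19) and HU-308 replicate 2 (0.03), with a range from −0.58, and that of Paics (0.08) without DMSO replicate 2 (−0.16) and HU-308 replicate 1 (−0.17), with a range up to 0.34. With 2 libraries a group, the spread between libraries (biological coefficient of variation 19.8%) limits these values.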

Other observations

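Kinases that convert nucleoside monophosphates and diphosphates onward had mixed values with HU-308. Of 12 tested genes, 6 had positive and 6 negative log2 fold changes, with a median of −0.02 (0.10 with library size scaling only, −0.03 to −0.08 with a single library left out) and none past the edgeR threshold. Cmpk2, a mitochondrial kinase that is also an interferon-induced gene, had the largest value of all the nucleotide genes examined, at 3.58 and 3.27 CPM with DMSO and 16.3 and 12.4 with HU-308 (log2 fold change 2.07 ± 0.25; edgeR adjusted p = 0.055; DESeq2 adjusted p = 4.29e-07). Ak4, a mitochondrial adenylate kinase, stood at 14.3 and 6.13 CPM with DMSO and 6.42 and 2.9 with HU-308, with overlapping groups (−1.13 ± 0.54; edgeR adjusted p = 0.323). Ak6, a nuclear adenylate kinase, stood at 13.8 and 13.8 CPM with DMSO and 8.91 and 9.95 with HU-308 (−0.55 ± 0.20; edgeR adjusted p = 0.227), and its counts are uncertain, since it shares 56.5% of its exon bases with Taf9. Dtymk, the thymidylate kinase, had a log2 fold change of 0.44 ± 0.25 (edgeR adjusted p = 0.399). The DESeq2 adjusted p was 0.196 for Ak4, 0.296 for Ak6 and 0.441 for Dtymk.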
